A study of Mus musculus with 4 samples.

Results

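The genes of the voltage-gated calcium and sodium channels were followed across the cell classes of the mouse pituitary. They were taken from the deposited gene table by symbol, as the pore genes Cacna1a to Cacna1i, the Cacna2d, Cacnb and Cacng genes, and the Scn genes of the pore and beta subunits. The rule found 39 genes among 55357 identifiers, and no measured value entered it. Of these, 37 had at least 20 UMIs (unique molecular identifiers, each counting 1 captured transcript) in at least 1 class. Cacng1, a gamma gene best known from skeletal muscle, and Scn4b, a sodium channel beta gene, peaked at 14 UMIs each in any class and are stated as not measured.

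Whole pituitaries of male mice were profiled by droplet single-cell RNA sequencing, with 2 libraries from a high-fat diet (HFD) group and 2 from a normal diet (ND) group. The mice began at 4 weeks of age, ate their diet for 12 weeks, and gave 3 pooled pituitaries per library; the sources used here give no strain. The labels also give every library the Lbt2 cell line and a gonadotroph cell type, whereas the matrix held all hormone classes of the gland and only 2.69% of the kept cells were gonadotroph-like. Cell barcodes end in a set number from 1 to 4 that no label or file ties to a library, so HFD and ND were not compared, and the matrix counts as 1 pooled sample.

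Voltage-gated calcium channels open when the membrane depolarises, and the calcium that enters triggers release of hormone from pituitary cells. A pore-forming alpha1 subunit sets the channel type, while beta and alpha2delta subunits govern its trafficking and gating; most gamma genes are better known as partners of AMPA receptors in brain. Voltage-gated sodium channels carry the fast upstroke of action potentials, and their beta subunits adjust gating and also act as adhesion molecules. Hormone cells of the pituitary fire spontaneous action potentials.

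The matrix held 346690898 UMIs in 40406 barcodes, with 81621358 to 92665029 UMIs and 9929 to 10212 barcodes per set and a median of 7167 to 8070.5 UMIs per barcode. Between 20 and 30 barcode sequences were shared by any pair of sets. After filters and doublet removal 36380 cells remained. They formed the somatotroph-like (13344 cells), lactotroph-like (8052), corticotroph-like (2555), melanotroph-like (740), gonadotroph-like (980) and thyrotroph-like (700) hormone classes. The other classes were stem or folliculostellate-like (2060), endothelial-like (1217), fibroblast-like (427), macrophage or microglia-like (1712), T or NK cell-like (475), B cell-like (138) and pituicyte-like (236) cells. Pituicytes are the glia of the neural lobe. Each hormone class held its own hormone as the highest of the 13 classes: Gh in somatotroph-like, Prl in lactotroph-like, Pomc in melanotroph-like, Cga, Fshb and Lhb in gonadotroph-like and Tshb in thyrotroph-like cells. Corticotroph-like cells had the second highest Pomc, at 54736 UMIs per 1000000. A further 75 proliferating and 32 neutrophil-like cells were too few to describe, and 3637 of the kept cells stayed unnamed.

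Levels are UMIs of a gene per 1000000 UMIs of the class (CPM), with exact 95% Poisson intervals that cover counting error only. A gene was said to lead in a class when that class had its highest CPM pooled and in each of the 4 sets, with at least 20 UMIs there, among the 12 classes that had 20 or more cells in each set. Pituicyte-like cells fell outside this rule because set 2 held 6 of them, and they are set beside the others in sets 1, 3 and 4. The sets are not replicates of a group, and no test or p-value is given. Hormone transcripts took 44.3% of the UMIs of somatotroph-like cells, against 8.03% to 22.1% in the other hormone classes. Leaving the 7 hormone genes out of the class sums multiplies every level by 1.80 in somatotroph-like and by 1.09 to 1.28 in the other hormone classes, and leads that turn with this choice are named with the gene. UMIs were counted from the 3′ end and are not divided by transcript length, so levels are compared between classes for 1 gene at a time, and a gene's share of the UMIs of its family is a share of captured tags, set side by side between classes.

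By this rule 15 of 37 channel genes led in a class, where 29.3% of the 21219 genes measured in the same way did. Melanotroph-like cells led for 4 channel genes (1.83% of all genes), thyrotroph-like cells for 3 (2.37%), fibroblast-like cells for 3 (3.15%) and corticotroph-like cells for 2 (3.33%). Lactotroph-like (1.43%), gonadotroph-like (2.87%) and endothelial-like cells (3.27%) led for 1 each. The melanotroph-like count was 2 with pituicyte-like cells added, 2 with each cell given to the class with its highest marker score, and 7 with the stricter cell filter, and the thyrotroph-like count was 0 with the marker score. The marker score gave every kept cell a class, the unnamed cells included, so its classes are not the same sets of cells. With it the corticotroph-like count was 4 and the gonadotroph-like count 4. Shares of all genes were not computed for these changed counts. No channel gene led in macrophage or microglia-like (3.11%), somatotroph-like (0.438%), stem or folliculostellate-like (3.48%), T or NK cell-like (3.2%) or B cell-like cells (0.848%). Counted by kind of class, one of the 6 hormone classes was highest in all 4 sets for 20 of 37 channel genes, against 22.1% of all genes. A class without a hormone was highest in all sets for 4 of 37, against 29.8% of all genes. With hormone genes out of the class sums the hormone classes were highest for 22 of 37, against 26.6% of all genes. With that choice somatotroph-like cells led for 1 channel gene (2.46% of all genes), thyrotroph-like cells for 1 (1.98%) and corticotroph-like cells for 1 (2.3%). The somatotroph-like lead was Scn10a, at 0.451 CPM on 36 UMIs. With pituicyte-like cells added, over sets 1, 3 and 4, these led for 4 channel genes, against 4.07% of all genes. Over the next highest class the 15 leading channel genes were a median 1.54-fold higher, against 2.05-fold for all 6223 leading genes.

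**Figure D1:**
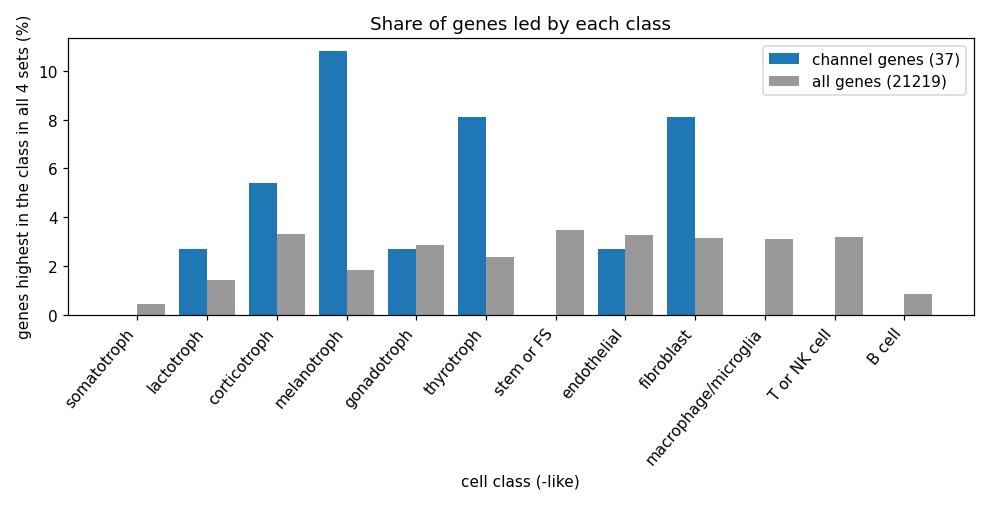
Share of genes (%, y axis) that were highest in a class in all 4 sets, for the 37 channel genes (blue, left) and all 21219 measured genes (grey, right), by cell class (x axis). Melanotroph-like cells led for 10.8% of channel genes and 1.83% of all genes; thyrotroph-like cells led for 3 channel genes here, for 1 with hormone genes out of the class sums and for 0 with the marker score.

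**Figure D2:**
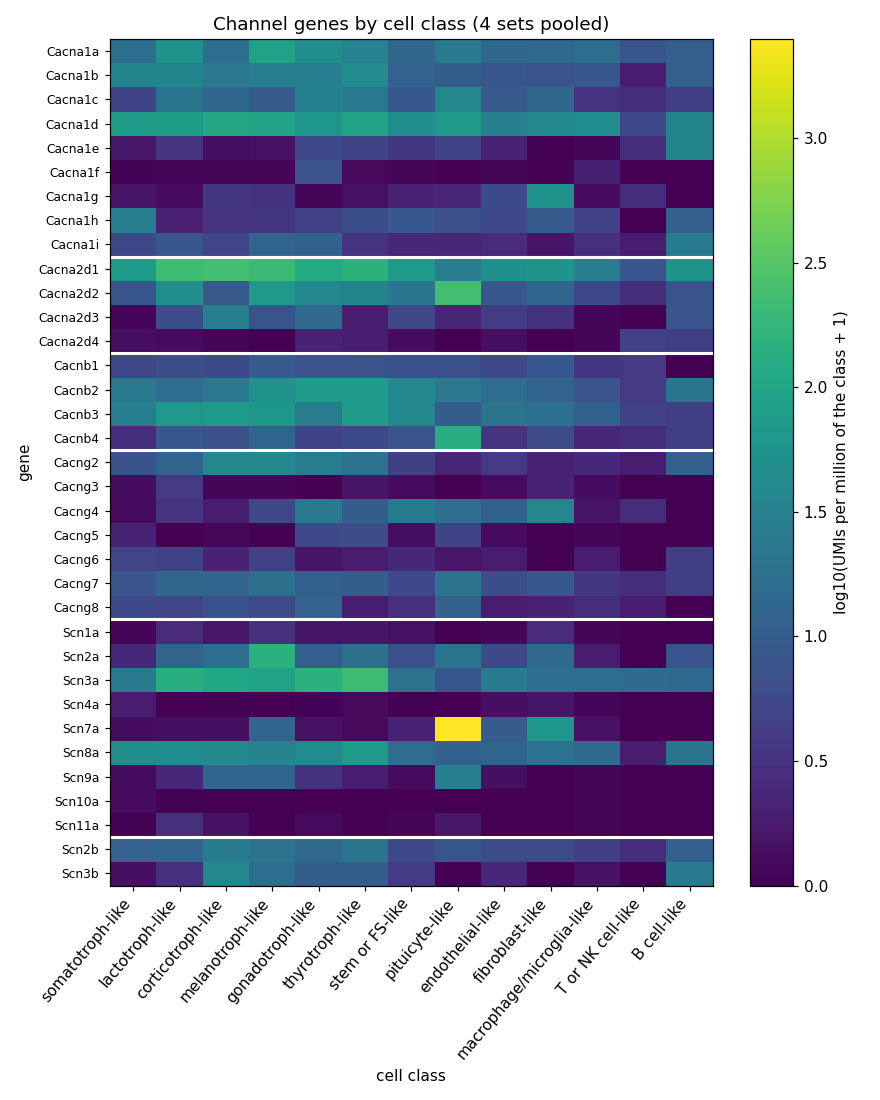
Levels of channel genes (rows, grouped from top as calcium channel pore, alpha2delta, beta and gamma genes, then sodium channel pore and beta genes) in 13 cell classes (columns), as log10 of CPM plus 1, 4 sets pooled. Scn7a in pituicyte-like cells is the brightest field at 2509 CPM, and T or NK cell-like and B cell-like columns rest on few UMIs.

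Among the L-type pore genes, which carry long-lasting calcium current, Cacna1d was broad, Cacna1c was higher in gonadotroph-like and pituicyte-like cells, and Cacna1f was near restricted to gonadotroph-like cells. Cacna1d (Cav1.3), a channel that opens at fairly negative voltages and takes part in pacemaking, reached 112 CPM in corticotroph-like cells (107 to 117), with 101, 111, 102 and 136 CPM in sets 1 to 4. It stood at 97.0 CPM in melanotroph-like, 94.6 in thyrotroph-like, 77.9 in lactotroph-like, 74.1 in somatotroph-like and 60.1 in gonadotroph-like cells. The set ranges of the first 3 overlap, and with hormone genes out of the class sums the order turned, with 133 CPM in somatotroph-like, 123 in melanotroph-like and 122 in corticotroph-like cells. In the reference annotation the last 1000 bases of Cacna1d overlap Chdh on the other strand, and the strand setting of the counting is not stated in the sources used here.

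Cacna1c (Cav1.2), the L-type pore of heart and smooth muscle, had 26.9, 34.8, 25.1 and 27.5 CPM in gonadotroph-like cells of sets 1 to 4. Thyrotroph-like cells had 12.5, 25.02, 27.3 and 23.0 CPM and lactotroph-like cells 19.7, 20.9, 19.6 and 20.5 CPM. Gonadotroph-like cells were above lactotroph-like cells in every set and above thyrotroph-like cells in all sets but set 3. Pituicyte-like cells had 35.8 CPM (27.0 to 46.7, 55 UMIs), an interval that overlaps that of gonadotroph-like cells (27.3 to 33.5). Cacna1f (Cav1.4), known as the L-type pore of retinal photoreceptors, had 5.0, 7.31, 8.83 and 4.21 CPM in gonadotroph-like cells (81 UMIs). The next class, macrophage or microglia-like cells, had 0, 1.04, 1.15 and 1.68 CPM (7 UMIs), and all other hormone classes were at or under 0.209 CPM. Gonadotroph-like cells were thus 6.40-fold above the next class (2.97 to 16.4), at a low level. At 2000 UMIs per cell 1.70% of 882 gonadotroph-like cells held a Cacna1f UMI (0.955 to 2.79; 15 UMIs, too few to count as a lead), against 0 of 257 T or NK cell-like cells, which allows a share of up to 1.17%. Without thinning the shares were 7.45% and 0 of 475, at median depths of 12954.5 and 2108 UMIs.

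The high-voltage pore genes outside the L type were led by melanotroph-like cells for Cacna1a. Cacna1a (Cav2.1, P/Q-type), which drives transmitter release at many brain synapses, had 96.2, 72.9, 93.2 and 87.4 CPM in melanotroph-like cells of sets 1 to 4. Lactotroph-like cells followed with 66.3, 56.7, 41.9 and 55.8 CPM and gonadotroph-like cells with 55.6, 43.7, 39.5 and 50.5 CPM. The lowest melanotroph-like set lay above the highest lactotroph-like set, and the pooled level was 1.64-fold higher (1.505 to 1.79). Corticotroph-like cells, which make the same precursor hormone from Pomc, had 15.8 CPM (14.1 to 17.6). Cacna1b (Cav2.2, N-type) had 42.8 CPM in thyrotroph-like cells (37.1 to 49.1), 33.7 in lactotroph-like and 33.4 in somatotroph-like cells; with hormone genes out of the class sums somatotroph-like cells were highest at 59.9 CPM, above 49.8 in thyrotroph-like cells. Thyrotroph-like cells were highest in 3 of the 4 sets. Cacna1e (Cav2.3, R-type) was low: 4.58 CPM in gonadotroph-like cells (57 UMIs). Its nominal high of 33.3 CPM in B cell-like cells rests on 10 UMIs and was 18.1 CPM without set 4. In the cells scored as B cell-like by the marker score, which are not the same cells, it was 2.78 CPM.

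Of the T-type pore genes, whose channels open near the resting potential, Cacna1g alone led in a class by the rule. Cacna1g (Cav3.1) had 57.1, 46.1, 59.9 and 47.5 CPM in fibroblast-like cells of sets 1 to 4. Endothelial-like cells came next with 2.81, 2.14, 5.79 and 9.90 CPM, and no hormone class was above 2.47 CPM. The sets of the 2 classes do not come near each other, and the pooled fold was 11.0 (7.46 to 16.4). With the marker score the fibroblast-like level was 28.0 CPM, and Cacna1g still led there. At 2000 UMIs per cell, 11.6% of 335 fibroblast-like cells held a Cacna1g UMI, against 0.778% of 257 T or NK cell-like cells; without thinning the shares were 18.7% and 0.421%, at median depths of 3448 and 2108 UMIs.

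Of the channel genes highest in somatotroph-like cells, Cacna1h (Cav3.2) had the most UMIs there, 3715 in all. It had 29.9, 27.8, 23.9 and 22.4 CPM in sets 1 to 4. Among the other hormone classes the highest was thyrotroph-like, with 6.75, 6.10, 0.974 and 8.27 CPM. Somatotroph-like cells were above every other class in sets 1, 2 and 3, and the lead in set 4 was lost to B cell-like cells on 3 UMIs. With hormone genes out of the class sums the somatotroph-like level was 46.5 CPM. With the marker score, which also gave the unnamed cells a class, the cells scored as B cell-like were highest. Somatotroph-like cells fell into 3 clusters, and Cacna1h had 31.8 CPM in the cluster led by the sterol synthesis genes Idi1, Hmgcs1 and Lss, against 24.0 and 21.6 CPM in the other 2. The first cluster was above both others in each set (26.8 to 37.0 CPM against 20.8 to 28.2 and 17.6 to 26.3 CPM over the sets). Channel genes were left out of the clustering, and Cacna1h still stood among the 10 genes with the highest fold in that cluster. Median depths of the 3 clusters, in the same order, were 10230, 10706 and 9141.5 UMIs, and the part of depth was not tested. In the reference annotation the last 1000 bases of Cacna1h overlap Tpsg1 on the other strand. Cacna1i (Cav3.3) had 12.0 CPM in melanotroph-like (82 UMIs) and 10.4 in gonadotroph-like cells (129 UMIs), and its nominal high in B cell-like cells rests on 7 UMIs.

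**Figure D3:**
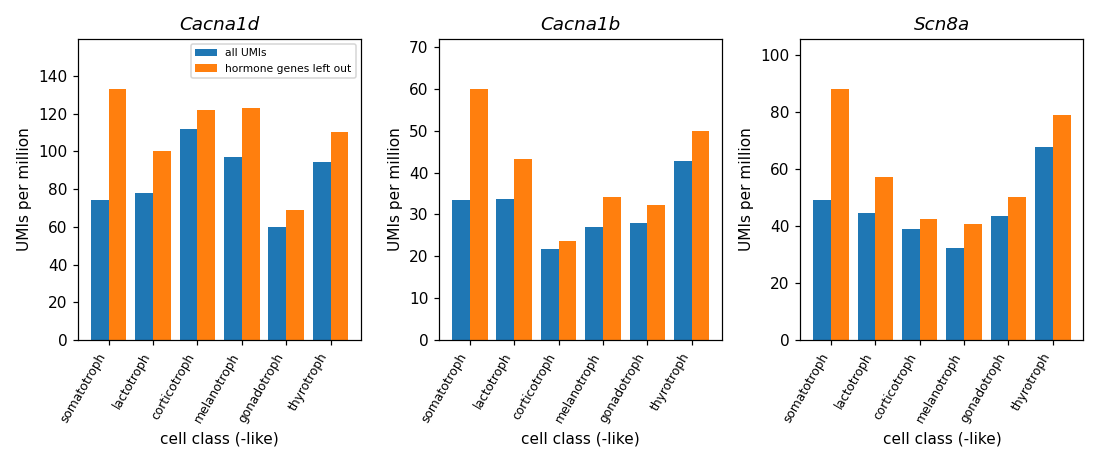
CPM (y axis) of Cacna1d, Cacna1b and Scn8a in the 6 hormone classes (x axis), with all UMIs in the class sum (blue, left) and with the 7 hormone genes left out (orange, right). Somatotroph-like cells are not the highest class on the first scale and are the highest on the second for each of the 3 genes.

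The alpha2delta subunits sit outside the membrane and raise channel number at the surface, and some of them bind gabapentin. Cacna2d1 made up most alpha2delta UMIs in every named class but pituicyte-like cells, with shares of 69.6% to 90.4% in the hormone classes. It had 249, 236, 230.1 and 238 CPM in corticotroph-like cells of sets 1 to 4 and 232, 195, 228 and 218 CPM in lactotroph-like cells. Corticotroph-like cells were higher in each set but by 1.09-fold pooled (1.05 to 1.12), and with hormone genes out of the class sums lactotroph-like cells were higher, at 282 against 259 CPM. They were also higher with cells thinned to 2000 UMIs (240 against 231 CPM), and they were highest in set 3 with doublets kept and with the marker score. Somatotroph-like cells had 72.8 CPM, the lowest of the hormone classes on either scale. Cacna2d3 had 25.1, 28.5, 29.2 and 27.4 CPM in corticotroph-like cells and 20.6, 12.3, 13.5 and 11.7 CPM in gonadotroph-like cells. No set of the second class reached any set of the first, and the fold was 2.06 (1.73 to 2.46). Cacna2d4 stayed at or under 3.57 CPM in each of the 13 classes, a high in T or NK cell-like cells that rests on 4 UMIs. Its largest count was 55 UMIs, in somatotroph-like cells at 0.383 CPM.

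Cacna2d2 led among the 12 classes in melanotroph-like cells, with 55.6, 64.3, 76.7 and 82.2 CPM in sets 1 to 4. Lactotroph-like cells had 50.7, 48.0, 37.4 and 44.7 CPM, below the lowest melanotroph-like set. With the marker score lactotroph-like cells were highest in sets 1 and 2, and with cells thinned to 2000 UMIs thyrotroph-like cells in set 3, so that the lead was lost. Pituicyte-like cells stood above both, with 225, 227 and 252 CPM in sets 1, 3 and 4, which is 3.48-fold the pooled melanotroph-like level (3.03 to 4.01). There Cacna2d2 made up 89.7% of the alpha2delta UMIs.

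The beta subunits bind the inner side of the pore and carry it to the surface. Cacnb3 and Cacnb2 together held most beta UMIs of the hormone classes, in proportions that differed by class. Cacnb3 made up 69.2% of beta UMIs in lactotroph-like and 69.8% in corticotroph-like cells, but 23.8% in gonadotroph-like cells, where Cacnb2 made up 66.8%. Thyrotroph-like cells had nearly equal shares, 46.6% for Cacnb3 and 46.3% for Cacnb2. By level, Cacnb2 had 58.1, 77.4, 85.1 and 73.5 CPM in gonadotroph-like cells of sets 1 to 4, against 67.5, 80.5, 64.3 and 77.2 CPM in thyrotroph-like cells. Neither class was higher throughout, and without set 3 thyrotroph-like cells were the higher ones pooled. Cacnb3 likewise had 65.6, 81.6, 71.8 and 79.6 CPM in corticotroph-like and 69.4, 79.9, 73.1 and 70.8 CPM in thyrotroph-like cells, and with hormone genes out of the class sums thyrotroph-like cells were the higher ones (86.2 against 82.2 CPM), as they were without set 4. Cacnb1, the beta subunit of skeletal muscle, had at most 8.90 CPM, in melanotroph-like cells.

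Cacnb4, the beta subunit gene that is mutated in the lethargic mouse, was low in the hormone classes and high in pituicyte-like cells. These had 174, 150.2 and 90.7 CPM in sets 1, 3 and 4 (214 UMIs in all), against 9.32, 11.0 and 16.3 CPM in melanotroph-like cells of the same sets. The fold over this next class was 12.3 (9.42 to 16.1), and Cacnb4 made up 79.3% of beta UMIs in pituicyte-like cells. At 2000 UMIs per cell 26.7% of 172 pituicyte-like cells held a Cacnb4 UMI, against 0 of 257 T or NK cell-like cells, which allows a share of up to 1.17%; without thinning the shares were 43.6% and 0.421%, at median depths of 6312.5 and 2108 UMIs.

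**Figure D4:**
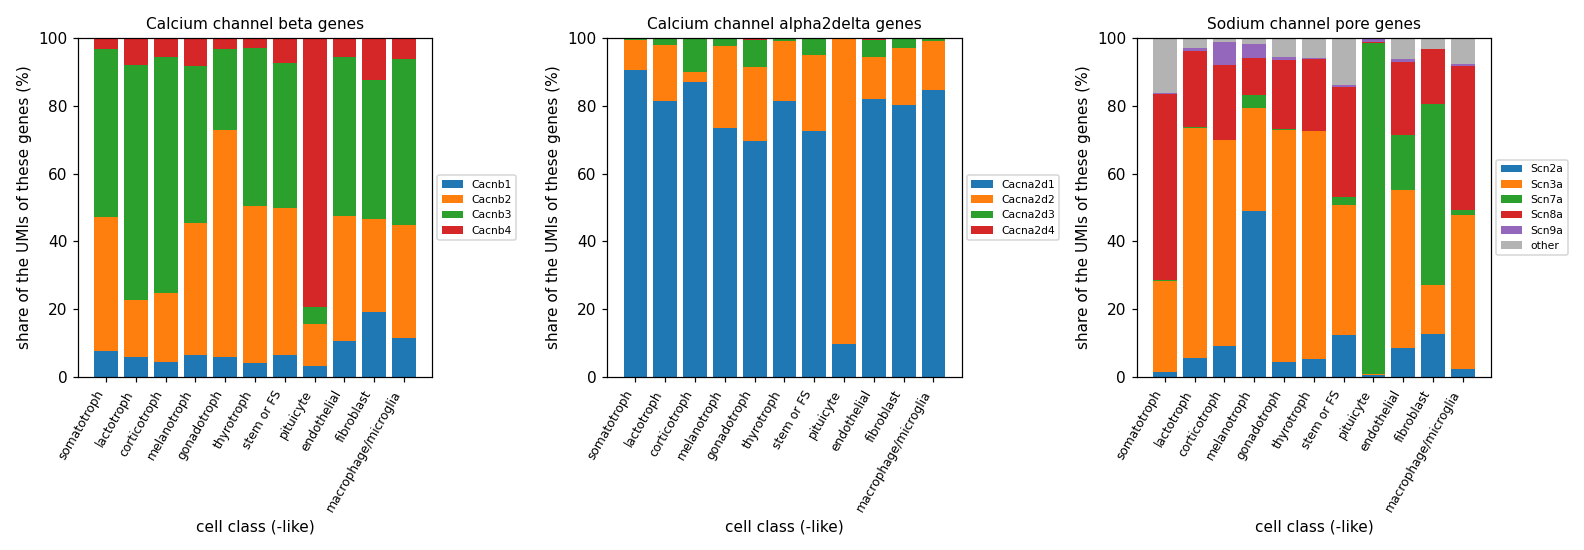
Share of the UMIs of each subunit family (%, y axis) taken by each gene in 11 cell classes (x axis), for calcium channel beta genes (left), alpha2delta genes (middle) and sodium channel pore genes (right; grey sums the pore genes not named in the legend). Pituicyte-like cells stand apart in all 3, with Cacnb4 at 79.3%, Cacna2d2 at 89.7% and Scn7a at 97.4%.

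The gamma genes were low to moderate. Cacng2 (stargazin) had 37.0, 36.4, 40.9 and 37.3 CPM in corticotroph-like cells and 36.0, 30.7, 45.7 and 37.9 CPM in melanotroph-like cells, and with hormone genes out of the class sums melanotroph-like cells were the higher ones (47.2 against 40.9 CPM), as they were without set 1 or set 2. The Pomc-making classes thus overlap for this gene, and gonadotroph-like cells followed with 25.8 CPM. Cacng4 led in fibroblast-like cells with 39.1, 41.0, 29.1 and 30.4 CPM, above 25, 27.1, 21.4 and 24.3 CPM in gonadotroph-like cells, on 62 UMIs. It did not lead with doublets kept (27.6 CPM), with the marker score (20.8 CPM, against 24.0 CPM in gonadotroph-like cells) or with cells thinned to 2000 UMIs (25.4 CPM, against 27.1 CPM in stem or folliculostellate-like cells). Cacng8 had 13.7, 10.5, 8.37 and 11.3 CPM in gonadotroph-like cells, against 6.92, 5.57, 6.93 and 6.14 CPM in corticotroph-like cells. Cacng3 (2.65 CPM in lactotroph-like cells), Cacng5 (5.43 CPM in thyrotroph-like cells) and Cacng6 (4.16 CPM in somatotroph-like cells) stayed low.

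Cacng7 led in melanotroph-like cells with 12.0, 15.3, 18.3 and 26.8 CPM in sets 1 to 4. It no longer led with cells thinned to 2000 UMIs, where lactotroph-like cells were highest in set 1. Nor did it lead with the marker score, where the cells scored as B cell-like were highest in set 1. In lactotroph-like cells it had 11.1, 9.20, 8.77 and 21.5 CPM, and in corticotroph-like cells 8.01, 9.92, 9.66 and 21.7 CPM. Pituicyte-like cells had 18.9 CPM pooled (29 UMIs), against 17.2 CPM in melanotroph-like cells, and without set 4 the melanotroph-like level was 14.0 CPM. Set 4 was the highest in all 6 hormone classes, with a median ratio of 2.29 to the mean of the other sets. Of the 18 channel genes with at least 20 UMIs in each hormone class, Cacng7 was the only one for which the same set was highest in all 6 classes (1 of 18, against 2.23% of 11502 genes). A median ratio of 2 or more went with that pattern in 0.156% of those genes. For no channel gene was the same set lowest in all 6 classes, against 1.83% of genes. Which diet set 4 stands for is not known here.

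Of the sodium channel pore genes 6 of 10 led in a class, and of the calcium channel pore genes 3 of 9, where 29.3% of all measured genes did. In the reference annotation Scn1a, Scn2a, Scn3a, Scn7a and Scn9a lie on mouse chromosome 2, and Scn10a and Scn11a on chromosome 9. Of the genes on chromosome 2, Scn2a was highest in melanotroph-like and Scn3a in thyrotroph-like cells. Scn7a and Scn9a shared a class, both being highest in pituicyte-like cells, at 2509 and 28.7 CPM. RefSeq promoter windows (250 bases before to 50 after the start, GRCm38.p6) were at hand for 29 of the 39 channel genes, in 40 windows. The windows of Scn2a and Scn7a, genes of the same chromosome that were high in different classes, are shown. With them stand those of Cacna2d2 and Cacnb4, which were high in pituicyte-like cells together with Scn7a. They lie at chr2:65620519-65620818 (plus strand) and chr2:65668436-65668735 (plus strand) for the 2 starts of Scn2a, chr2:66784861-66785160 (minus strand) for Scn7a, chr9:107399630-107399929 (plus strand) for Cacna2d2 and chr2:52676094-52676393 (minus strand) for the first start of Cacnb4. Capitals mark matches, on either strand, to 5 motifs: the TATA box as TATAAA, the GC box as GGGCGG, the Pitx core as TAATCC, the T-box site as TCACAC and the Sox core as AACAAT.
Scn2a start 1: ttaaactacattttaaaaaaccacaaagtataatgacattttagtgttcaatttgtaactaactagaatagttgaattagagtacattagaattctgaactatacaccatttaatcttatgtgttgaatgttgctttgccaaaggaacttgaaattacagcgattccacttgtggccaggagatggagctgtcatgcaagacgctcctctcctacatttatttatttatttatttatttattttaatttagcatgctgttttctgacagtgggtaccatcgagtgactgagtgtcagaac
Scn2a start 2: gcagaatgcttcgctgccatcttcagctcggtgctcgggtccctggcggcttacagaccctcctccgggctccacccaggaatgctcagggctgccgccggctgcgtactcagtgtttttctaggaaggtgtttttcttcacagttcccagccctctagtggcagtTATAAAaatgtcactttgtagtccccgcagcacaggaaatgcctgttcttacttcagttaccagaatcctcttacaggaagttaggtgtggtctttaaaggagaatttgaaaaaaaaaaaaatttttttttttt
Scn7a: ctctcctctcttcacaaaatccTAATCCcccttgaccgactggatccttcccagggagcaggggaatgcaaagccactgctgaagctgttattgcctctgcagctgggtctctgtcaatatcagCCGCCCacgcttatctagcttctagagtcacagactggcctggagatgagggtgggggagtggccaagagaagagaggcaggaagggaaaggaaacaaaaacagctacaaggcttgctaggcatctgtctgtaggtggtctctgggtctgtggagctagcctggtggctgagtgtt
Cacna2d2: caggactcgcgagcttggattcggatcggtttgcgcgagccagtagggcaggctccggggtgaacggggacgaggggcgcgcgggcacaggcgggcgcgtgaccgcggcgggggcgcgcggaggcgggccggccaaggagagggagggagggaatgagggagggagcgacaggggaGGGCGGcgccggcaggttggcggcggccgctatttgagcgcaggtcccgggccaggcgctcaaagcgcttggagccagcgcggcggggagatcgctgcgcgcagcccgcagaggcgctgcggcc
Cacnb4 start 1: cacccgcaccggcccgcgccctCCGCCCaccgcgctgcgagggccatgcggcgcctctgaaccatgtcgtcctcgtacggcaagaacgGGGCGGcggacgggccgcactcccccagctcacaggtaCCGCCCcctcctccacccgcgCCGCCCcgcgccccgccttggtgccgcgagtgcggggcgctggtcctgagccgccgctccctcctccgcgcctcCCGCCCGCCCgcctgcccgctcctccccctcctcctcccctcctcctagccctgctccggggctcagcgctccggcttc

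The first Scn2a window holds none of the 5 motifs, and the second holds TATAAA at position -84, counted from the start. The Scn7a window holds TAATCC at -228 and a GC box on the other strand at -126. The Cacna2d2 window holds 1 GC box at -74. The first of the 3 Cacnb4 windows on chromosome 2 holds 6, of which the 2 nearest the start overlap. The other Cacnb4 windows there, not shown, hold none of the 5 motifs. Over all 32851 promoter windows, GGGCGG was in 35.7%, TCACAC in 14.5%, TATAAA in 13.6%, AACAAT in 10.7% and TAATCC in 7.06%. The 40 channel windows held them in 15, 4, 2, 4 and 3 cases in the same order. These are letter matches in windows of 300 bases and nothing on binding was measured.

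Scn2a (Nav1.2), a neuronal pore found early in development along axons, had 161, 112, 144 and 139 CPM in melanotroph-like cells of sets 1 to 4. The next of the 12 classes, thyrotroph-like, had 5.78, 20.1, 21.4 and 18.4 CPM, and corticotroph-like cells had 14.7, 16.04, 13.9 and 20.1 CPM. Melanotroph-like cells were far above all others in each set, 8.61-fold over the next class pooled (6.86 to 10.9). Somatotroph-like cells held a Scn2a UMI in 0.309% of 12949 cells at 2000 UMIs per cell, and melanotroph-like cells in 25% of 656 (21.7 to 28.5). T or NK cell-like cells had 0 of 257, which allows a share of up to 1.17%. Without thinning the melanotroph-like share was 61.9%, at a median of 8400.5 UMIs, and the T or NK cell-like share 0 of 475, at a median of 2108 UMIs.

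Scn3a (Nav1.3), a pore that is high in the embryonic nervous system of rodents, took most sodium pore UMIs in lactotroph-like (67.7%), corticotroph-like (60.7%), gonadotroph-like (68.6%) and thyrotroph-like cells (67.3%). It had 198, 212, 239 and 216 CPM in thyrotroph-like cells of sets 1 to 4, against 153, 144, 177 and 131 CPM in gonadotroph-like cells. The lowest thyrotroph-like set lay above the highest gonadotroph-like set, and the fold was 1.46 (1.35 to 1.58). This order turned with the marker score, where Scn3a had 120.0 CPM in thyrotroph-like and 145 CPM in gonadotroph-like cells and no longer led. In the other 2 hormone classes another gene had the largest share. Scn8a made up 54.8% in somatotroph-like cells, with Scn3a at 26.6%, and Scn2a made up 49.1% in melanotroph-like cells, with Scn3a at 30.2%.

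Scn8a (Nav1.6), the main pore at mature nodes of Ranvier, had 55.9, 66.5, 84.7 and 65.2 CPM in thyrotroph-like and 45.5, 51.7, 46.6 and 52.4 CPM in somatotroph-like cells; with hormone genes out of the class sums somatotroph-like cells were the higher ones, at 88.1 against 79.0 CPM. With the marker score, which also gave the unnamed cells a class, the cells scored as B cell-like were highest in sets 1 and 4.

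Scn7a (Nax), a sodium sensor of glia rather than a classical voltage-gated channel, was the sharpest case. Pituicyte-like cells had 2649, 2579.7 and 2306 CPM in sets 1, 3 and 4, on 3850 UMIs, and the 6 pituicyte-like cells of set 2 had 1805 CPM. Fibroblast-like cells followed with 63.1, 53.8, 71.9 and 47.5 CPM (31.8 CPM pooled with the marker score) and melanotroph-like cells with 5.66, 5.75, 9.13 and 28.0 CPM. The pituicyte-like level was 42.2-fold that of fibroblast-like cells (34.9 to 51.5). Scn7a was the gene with the highest fold in the pituicyte-like cluster although it was kept out of the clustering. At 2000 UMIs per cell, 95.3% of 172 pituicyte-like cells held a Scn7a UMI (91.0 to 98.0), 12.8% of 335 fibroblast-like cells and 0 of 257 T or NK cell-like cells, which allows up to 1.17%. Without thinning these were 91.1%, 19.0% and 0 of 475, at median depths of 6312.5, 3448 and 2108 UMIs.

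Scn9a (Nav1.7), a pore of pain-sensing neurons, had 11.2, 13.2, 11.9 and 10.6 CPM in corticotroph-like cells and 7.66, 18.2, 12.8 and 14.6 CPM in melanotroph-like cells, which with hormone genes out of the class sums were the higher ones (14.99 against 12.99 CPM), as they were without set 1. The classes that make Pomc thus overlap, and gonadotroph-like cells came next with 2.17 CPM. Pituicyte-like cells had 33.0, 35.3 and 19.7 CPM in sets 1, 3 and 4, 2.40-fold the corticotroph-like level (1.70 to 3.32), on 44 UMIs. In the reference annotation an antisense gene, Gm13629, overlaps the last 1000 bases of Scn9a. Scn11a (Nav1.9), another pore of sensory neurons, was near restricted to lactotroph-like cells at a very low level. It had 2.01, 1.79, 2.33 and 1.48 CPM there on 113 UMIs, 4.34-fold over corticotroph-like cells (2.21 to 9.75, 9 UMIs). With the marker score it was highest, in set 1, in the cells scored as B cell-like. Scn10a (0.251 CPM) and Scn4a (0.830 CPM) were highest in somatotroph-like cells on 36 and 119 UMIs. With hormone genes out of the class sums Scn10a led there, at 0.451 CPM. Scn1a did not pass 2.04 CPM in any of the 13 classes. That was the level of melanotroph-like cells, on 14 UMIs, and it was 1.30 CPM without set 1.

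Counted as 1 family at 2000 UMIs per cell, a UMI of any sodium channel pore gene was held by 96.5% of pituicyte-like, 49.9% of thyrotroph-like (45.8 to 54.0) and 44.1% of melanotroph-like cells (40.2 to 47.9). The share was 2.33% in T or NK cell-like cells. A UMI of any calcium channel pore gene was held by 39.6% of melanotroph-like (35.9 to 43.5), 28.0% of somatotroph-like (27.2 to 28.8) and 4.28% of T or NK cell-like cells. Thinning left out 84, 395 and 218 cells of these 3 classes. Without thinning the calcium pore shares were 76.8%, 76.4% and 3.79%, and the thyrotroph-like sodium pore share was 77.4%. The 2000 UMIs of a thinned cell include hormone transcripts. These took 44.3% of the UMIs of somatotroph-like and 21.2% of those of melanotroph-like cells, and their part in the shares was not tested.

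**Figure D5:**
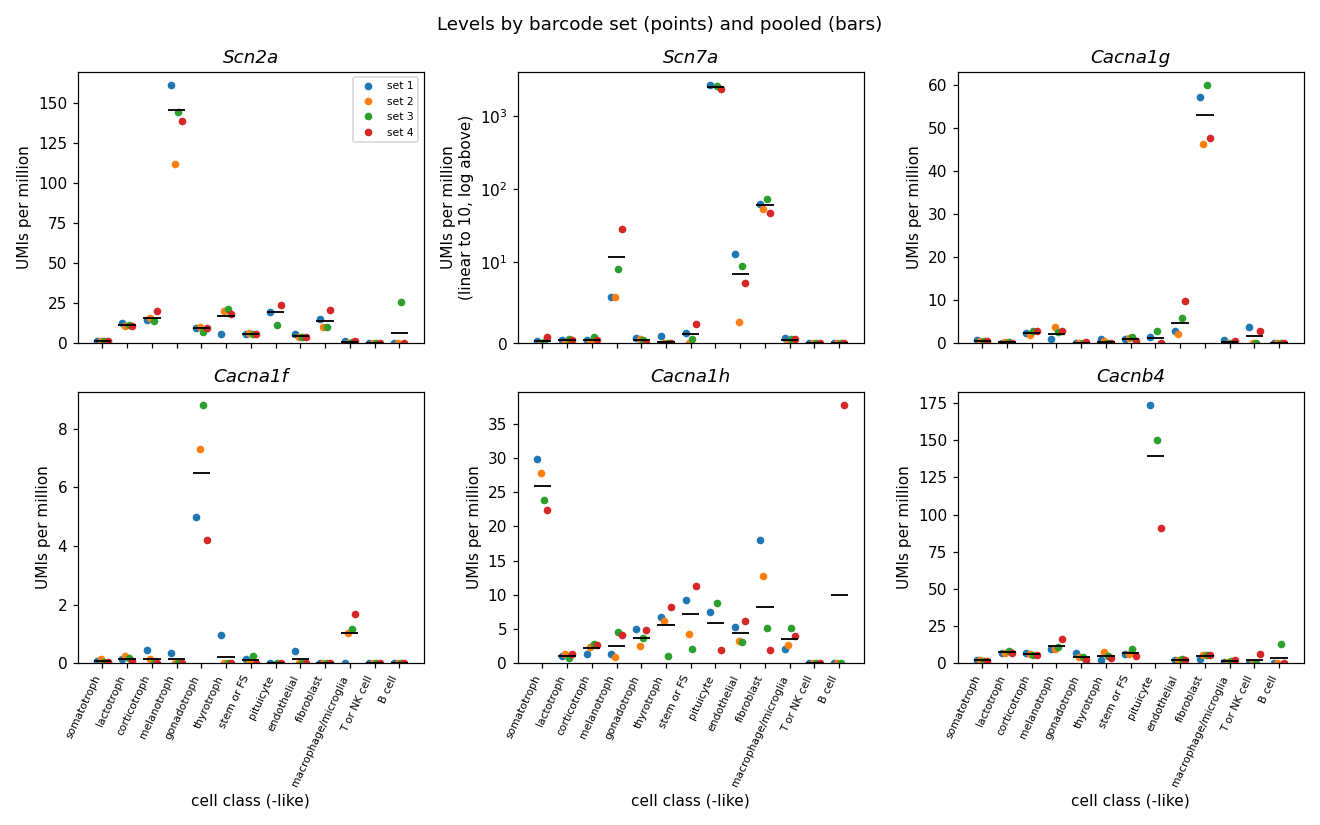
CPM (y axis; linear to 10 and logarithmic above for Scn7a, linear otherwise) of 6 channel genes in 13 cell classes (x axis), with a point for each barcode set and a bar for the pooled level; set 2 of the pituicyte-like class (6 cells) is left out as a point. For Scn2a the melanotroph-like sets lie at 112 to 161 CPM, and the one high B cell-like point of Cacna1h rests on 3 UMIs.

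The sodium channel beta subunits adjust gating and serve adhesion. Scn2b took 85.2% of the UMIs of these genes in somatotroph-like and 80.6% in lactotroph-like cells, and Scn3b took 47.1% in corticotroph-like cells. Scn3b had 39.6, 33.2, 51.8 and 30.5 CPM in corticotroph-like cells, against 12.0, 19.2, 14.6 and 19.2 CPM in melanotroph-like cells. It was highest in corticotroph-like cells in all sets but set 3, in which B cell-like cells were above them on few UMIs. Scn2b had 24.4, 23.7, 23.3 and 22.4 CPM in corticotroph-like cells and 20.2, 22.6, 13.6 and 20.2 CPM in thyrotroph-like cells.

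Genes that act with these channels were read from lists of 69 genes, of which 63 were measured. Of these, 28 led in a class (44.4%, against 29.3% of all genes). By list these were 3 of 9 regulators of calcium channels, 5 of 8 sodium channel partners, 3 of 8 background cation and HCN channels, 4 of 14 calcium store genes, 6 of 10 calcium extrusion genes, 6 of 11 calmodulin and kinase genes, and 1 of 3 other pore genes. Corticotroph-like cells led for 8 of them (3.33% of all genes), thyrotroph-like cells for 4 (2.37%), and melanotroph-like (1.83%), gonadotroph-like (2.87%) and fibroblast-like cells (3.15%) for 3 each. In corticotroph-like cells the calcium store genes Ryr2, a release channel, and Atp2a1, a calcium pump of the reticulum, stood at 78.7 and 21.8 CPM, against 27.6 and 2.97 CPM in gonadotroph-like cells. Camk2b, a calmodulin kinase gene, had 193 CPM in corticotroph-like and 104 CPM in gonadotroph-like cells. Melanotroph-like cells, which led for Scn2a and Cacna1a, also led for Fgf14, a sodium channel partner, with 52.5 CPM against 26.5 CPM in somatotroph-like cells, and for Camk2a with 80.5 CPM against 19.4 CPM in corticotroph-like cells.

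The calcium extrusion genes led by gonadotroph-like cells included Atp2b2 (102 CPM, against 80.8 in corticotroph-like cells) and Slc8a2 (23.8 CPM, against 13.2 in stem or folliculostellate-like cells). Fibroblast-like cells, which led for Cacna1g, also led for Rem1, a small GTPase that inhibits calcium channels, with 55.1 CPM against 13.1 CPM in endothelial-like cells. Cachd1, an alpha2delta-like gene, led in stem or folliculostellate-like cells with 51.5 CPM against 17.0 CPM in gonadotroph-like cells, and T or NK cell-like cells led for Orai1, the pore of store-operated entry, with 281 CPM against 116 CPM in B cell-like cells. Nedd4l, a ubiquitin ligase that acts on sodium channels, had 85.8 CPM in stem or folliculostellate-like and 65.6 CPM in corticotroph-like cells, and Camk1 had 222 CPM in macrophage or microglia-like and 127 CPM in endothelial-like cells. With hormone genes out of the class sums 26 of the 63 led in a class, and the matching share of all genes was not computed. Among the genes with 100 or more UMIs, Slc24a2 (99.6 CPM), Fam155a (136 CPM), Hcn4 (13.4 CPM) and Ank3 (209.9 CPM) then no longer led in corticotroph-like cells. Ank2 (293 CPM) then no longer led in fibroblast-like cells.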

How the data were processed

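Transcripts were measured by 3′ single-cell RNA sequencing in 4 libraries of mouse pituitary. The deposited values are raw UMI counts per gene and barcode in 1 matrix, written by Cell Ranger 8.0.1 per the file headers. Per the submitters' processing notes Seurat was used, with no version. The genome build is not given in the sources used here, nor is the treatment of intronic and antisense reads. Barcode numbers 1 to 4 are tied to no library, so the planned comparison of HFD and ND was not made, no test was run, and values are given pooled and per set.

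Barcodes with at least 500 UMIs, 250 genes and at most 25% mitochondrial UMIs were kept, which removed 567. Scrublet in scanpy 1.11.5 (expected rate 8%) called 3459 doublets (8.68%; 6.71% to 10.8% per set), which were removed. Per cell, counts were scaled to 10000 and their logs taken. Of 2000 variable genes, the 2 channel genes among them were left out, Scn7a included; 30 components, 15 neighbours and Leiden resolution 1.0 (igraph 0.11.9) gave the clusters. A cluster got a name where 3 or more markers passed a log2 fold of 0.5 and were detected in 25% of its cells, and stayed unnamed with markers of a second class or too few markers. Names describe clusters rebuilt here. For shares of cells each cell was thinned to 2000 UMIs and shallower cells were left out; intervals are exact Clopper-Pearson at 95%. Fold intervals are exact conditional binomial. Shares of 0 are given with the limit that 3 counts allow. All intervals cover counting error only.

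All channel genes enter the counts; results of some genes are not reported here. Of the lists of related genes, those named have at least 100 UMIs in the leading class and lead in all 4 sets, up to 3 per list by fold. Ank3 was named after its values were seen. The genes, lists and classes were chosen with earlier results of these data known. Gene positions and overlaps come from GENCODE vM21, which holds all 39 channel genes, and promoter sequences from RefSeq (GRCm38.p6). The rule for leading genes and the intervals were also run on simulated counts with counting error only. Those counts held no spread between cells or sets, so they cannot show how the rule behaves on these data. Alternatives changed the clustering genes, doublets, cell filter, resolution, class assignment, class sums, depth, free RNA, count minimum, sets and classes. Python 3.11.15, numpy 2.4.6, scipy 1.17.1, pandas 2.3.3 and matplotlib 3.10.9 were used.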

Additional observations from a re-analysis of the deposited data

Results flagged for a closer look

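Signal was seen in cells that no comparison of the hormone classes uses. Cluster 10, which stayed unnamed, had 3090 cells, with 1465.5 UMIs and 5.59% mitochondrial UMIs per cell at the median, and mitochondrial genes led it. With all UMIs in the class sums, Cacna1d had 143.5 CPM in it, above the 112 CPM of corticotroph-like cells, the highest named class. Scn8a had 113 CPM there, above 67.8 CPM in thyrotroph-like cells, and Cacna1b had 69.4 CPM, above 42.8 CPM in thyrotroph-like cells. The lowest sets of cluster 10 were at 109, 107 and 56.2 CPM for these genes. With hormone genes out of the class sums, somatotroph-like cells were the highest of the 12 classes for Cacna1d, Scn8a and Cacna1b. Their levels were then 133, 88.1 and 59.9 CPM, and cluster 10 was not put on that scale. The cluster passed 2 markers, Ghrhr and Pou1f1, fewer than the 3 needed for a name. Which cells the cluster holds was not tested.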

How the results depend on the processing

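The number of leading channel genes was 15 and lay between 12 and 20 over the changes of clustering, doublets, filters, class sums, depth and count minimum. Over 13 changed settings, 4 of the 15 genes, Cacna1a, Cacna2d3 and Scn2a among them, led in the same class each time. Of the others, 5 did so in all but 1 setting and the rest in at least 9. These settings leave out the count minimum, the hormone classes alone and the added pituicyte-like cells. With pituicyte-like cells added, Scn7a no longer led in fibroblast-like cells, nor Cacna2d2 and Cacng7 in melanotroph-like cells. With doublets kept, corticotroph-like cells led for 1 gene. With the stricter cell filter (1000 UMIs, 500 genes, 10% mitochondrial), which left no fibroblast-like class, lactotroph-like cells led for 2, melanotroph-like for 7 and gonadotroph-like for 2, and a class without a hormone was highest for 1. With cells assigned by marker score, corticotroph-like cells led for 4, melanotroph-like for 2, gonadotroph-like for 4 and thyrotroph-like for 0. With hormone genes out of the class sums, corticotroph-like cells led for 1, thyrotroph-like for 1 and melanotroph-like for 5. With cells thinned to 2000 UMIs, gonadotroph-like cells led for 0. For the changed settings here and below, shares of all genes were computed only where they are given above.

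Leaving out 1 set at a time gave 16 to 22 leading genes, with 1 to 2 in lactotroph-like, 2 to 5 in corticotroph-like (5 without set 3), 4 to 5 in melanotroph-like, 1 to 3 in gonadotroph-like (3 without set 3) and 3 to 4 in thyrotroph-like cells. A hormone class was highest for 19 to 24 of 37, and 3 sets instead of 4 make the rule easier to meet. After seeing the data, pituicyte-like cells were added (sets 1, 3 and 4): they led for 4, melanotroph-like cells for 2, and a class without a hormone was highest for 7. Among the hormone classes alone, also chosen after seeing the data, lactotroph-like cells led for 2, melanotroph-like for 7 and gonadotroph-like for 3. Leaving out named clusters with a median under 1500 UMIs, keeping channel genes in the clustering, resolution 0.5, free RNA subtracted and a minimum of 50 UMIs moved no such count by more than 1.5 times. Of the highest levels of the channel genes, marker scores moved 8 of 37 by over 1.5 times and leaving out hormone genes 4 of 37. The causes were not tested. Without thinning the calcium pore shares were 76.8% in melanotroph-like and 76.4% in somatotroph-like cells, the sodium pore share 77.4% in thyrotroph-like cells and the Scn2a share 61.9% in melanotroph-like cells. No paired analysis was possible because the barcodes are not tied to libraries. Depth limits the classes with few cells: the T or NK cell-like and B cell-like classes held 1119152 and 300501 UMIs, so 3 counts stand for 2.68 and 9.98 CPM there.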
